A study of Mus musculus with 216 samples.

Results

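The Pax genes encode a family of 9 transcription factors that share a paired domain, and they were examined for domains of H3K9me3, the trimethylated lysine 9 of histone H3, in mouse embryonic stem cells. The members are Pax1 to Pax9 of the GENCODE vM21 annotation. Every H3K9me3 domain of the authors' deposited table that overlapped a gene body, or the 10 kb on either side of it, was taken, and this gave 14 of the 42890 domains that lie on the assembled chromosomes. The family was selected on the decay classes themselves, because Pax3, Pax6 and Pax7 were known to carry slow or residual domains, so the classes below are a description and were not tested.

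The study followed the loss of H3K9me3 and of HP1β by ChIP-seq at 0, 1, 3, 12, 24 and 48 h. All samples came from 1 embryonic stem cell line, dTKO. Its genotype is Suv39h1fl/fl; Suv39h2-/-; Setdb1fl/fl, and the controls at 0 h share it. All of them, those at 0 h included, carry the treatment label of auxin with dTAG13, given at 100 µg/ml and 0.5 µM. These small molecules send tagged proteins to degradation, and per the series' design text the histone lysine 9 methyltransferases are what is removed. The labels do not say which proteins carry the tags, and no wild-type series is described here. The 216 sequencing runs fall into 4 kinds (H3K9me3, HP1β and an input for each) of 54 runs, with 9 runs at each time from 3 biological repeats. The deposited table gives each domain 1 of 4 classes in words: fast, intermediate, slow or residual. It holds 0 columns of sample values, so no class has an error between cultures, the depth behind a class is unknown, and no time can be compared with another at a single gene. The limits between the classes, and the place of residual in their order, are stated by none of the sources read here. The table draws slow and residual domains in 1 display colour and gives fast and intermediate domains others of their own.

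Pax proteins bind DNA through the paired domain, and some members add a homeodomain. They direct early organ and lineage choices: Pax6 in the eye, brain and pancreas, Pax3 and Pax7 in neural crest and muscle, Pax2 and Pax8 in kidney, Pax8 also in thyroid, Pax5 in B cells, Pax1 and Pax9 in the skeleton, and Pax4 in pancreatic beta cells. H3K9me3 is the mark of constitutive heterochromatin, is written by enzymes that include SUV39H1, SUV39H2 and SETDB1, and is bound by HP1 proteins.

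Of the 14 domains, 5 covered coding exons, and the exons that carried the largest piece of a DNA-binding domain are printed below from the GRCm38.p6 sequence, 5′ to 3′ on the coding strand. Each whole exon has 15 bases of flank at either end, while both ends of the Pax1 stretch are coding bases of its exon. Capitals mark bases that encode the part of the domain aligned in all members that have it. Pax6 exon 6 (chr2:105684872-105685117, plus strand, residual domain), Pax7 exon 2 (chr4:139830123-139830388, minus strand, residual domain) and Pax2 exon 3 (chr19:44761673-44761900, plus strand, residual domain) encode pieces of the paired domain. The first part of Pax1 exon 2 (chr2:147365735-147366034, plus strand, intermediate domain) encodes most of its paired domain and lies wholly inside the exon, and Pax3 exon 6 (chr1:78122576-78122771, minus strand, slow domain) opens with the last aligned bases of the homeodomain.
Pax6 exon 6: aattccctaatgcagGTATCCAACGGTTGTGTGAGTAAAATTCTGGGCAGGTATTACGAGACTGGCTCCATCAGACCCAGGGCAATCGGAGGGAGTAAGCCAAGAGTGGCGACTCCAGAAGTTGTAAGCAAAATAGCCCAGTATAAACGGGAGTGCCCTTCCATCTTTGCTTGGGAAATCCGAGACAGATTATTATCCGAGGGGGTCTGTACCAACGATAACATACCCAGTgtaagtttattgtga
Pax7 exon 2: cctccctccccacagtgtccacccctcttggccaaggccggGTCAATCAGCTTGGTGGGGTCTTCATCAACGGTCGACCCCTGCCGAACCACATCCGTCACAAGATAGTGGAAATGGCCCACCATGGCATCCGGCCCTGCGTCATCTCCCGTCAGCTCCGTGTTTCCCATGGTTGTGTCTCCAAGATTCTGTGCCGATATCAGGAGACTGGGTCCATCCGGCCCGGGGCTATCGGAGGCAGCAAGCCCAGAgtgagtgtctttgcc
Pax2 exon 3: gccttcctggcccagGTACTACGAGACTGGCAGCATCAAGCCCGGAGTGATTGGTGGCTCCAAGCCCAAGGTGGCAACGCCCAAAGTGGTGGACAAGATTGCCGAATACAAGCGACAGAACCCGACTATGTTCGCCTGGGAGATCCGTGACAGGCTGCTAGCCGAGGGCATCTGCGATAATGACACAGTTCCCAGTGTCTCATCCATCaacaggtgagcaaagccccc
Pax1 exon 2: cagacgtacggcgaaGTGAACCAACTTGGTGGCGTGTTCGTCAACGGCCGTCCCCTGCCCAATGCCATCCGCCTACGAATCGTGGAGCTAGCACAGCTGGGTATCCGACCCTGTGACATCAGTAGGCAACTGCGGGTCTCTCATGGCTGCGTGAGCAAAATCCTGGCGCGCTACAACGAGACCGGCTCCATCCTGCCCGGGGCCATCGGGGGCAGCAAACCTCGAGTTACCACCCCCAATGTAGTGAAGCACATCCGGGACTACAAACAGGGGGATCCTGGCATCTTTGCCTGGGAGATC
Pax3 exon 6: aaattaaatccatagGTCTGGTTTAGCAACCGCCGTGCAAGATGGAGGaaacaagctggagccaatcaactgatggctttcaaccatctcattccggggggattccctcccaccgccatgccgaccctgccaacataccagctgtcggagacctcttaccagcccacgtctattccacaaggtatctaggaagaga

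The middle 200 bases of 2 residual domains without coding sequence are also given with every CpG in capitals, together with the 250 bases before the Pax1 start, credited to RefSeq on GRCm38.p6. The Pax6 stretch (chr2:105665751-105665950, plus strand) lies upstream of the gene and held 1 CpG at 38.5% GC. It is poorer in CpG than its whole domain, which had 19.8 CpGs per kb at 48.9% GC, the highest CpG density of the 7 residual domains. The Pax7 stretch (chr4:139765251-139765450, minus strand) lies in intron 7 and held 2 CpGs at 48.5% GC. The Pax1 stretch (chr2:147364744-147364993, plus strand) held 10 CpGs at 58.8% GC and lies inside an intermediate domain.
Pax6 upstream domain: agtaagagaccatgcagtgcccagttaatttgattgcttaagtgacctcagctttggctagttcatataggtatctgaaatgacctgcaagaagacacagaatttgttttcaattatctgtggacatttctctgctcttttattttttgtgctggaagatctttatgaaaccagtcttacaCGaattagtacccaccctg
Pax7 intronic domain: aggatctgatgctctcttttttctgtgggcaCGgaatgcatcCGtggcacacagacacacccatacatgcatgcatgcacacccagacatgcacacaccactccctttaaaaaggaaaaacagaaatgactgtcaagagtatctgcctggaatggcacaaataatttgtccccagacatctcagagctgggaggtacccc
Pax1 promoter: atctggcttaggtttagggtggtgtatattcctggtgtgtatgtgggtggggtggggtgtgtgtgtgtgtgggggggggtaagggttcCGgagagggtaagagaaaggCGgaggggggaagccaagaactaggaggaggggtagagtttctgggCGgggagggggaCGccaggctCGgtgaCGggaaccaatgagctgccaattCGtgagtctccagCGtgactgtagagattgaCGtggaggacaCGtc

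Residual was the most frequent class at the Pax genes. It held 7 of the 14 domains (50.0%), at 5 genes: Pax2, Pax3, Pax5, Pax6 and Pax7. Over all domains the residual class held 4.57%, and among the 14978 domains within 10 kb of any protein-coding gene it held 7.76%. The intermediate class held 5 Pax domains (35.7%), against 71.5% of all domains and 68.3% of those near coding genes. The slow class and the fast class held 1 Pax domain each, both at Pax3, where 20.5% of all domains and 20.7% of those near coding genes were slow, and 3.49% of all domains were fast. Residual domains are crowded on chromosomes 8 and 11, which carry no Pax gene, and without those chromosomes the residual share near coding genes was 4.48% (570 of 12722). Since the genes were picked for these classes, the distance between 50.0% and the backgrounds is part of the choice.

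By gene, 7 of 9 members (77.8%) had a domain within 10 kb, while 42.2% of the 21938 protein-coding genes had one. Pax genes are long, with a median body of 55.0 kb, and among coding genes of 20 to 200 kb, a range set after the values were seen, the share was 47.3%. A residual domain lay at 5 Pax genes (55.6%), against 5.05% of all coding genes and 5.28% of those of 20 to 200 kb. A domain lay at 6 of 8 Lhx genes, 71.4% of Nkx, 70.6% of T-box and 64.1% of Hox genes. At Gata and Sox genes the shares were 50.0% and 47.4%. A residual domain lay at 51.3% of Hox, 50.0% of Gata, 41.2% of T-box and 37.5% of Lhx genes, and at 31.6% of Sox and 28.6% of Nkx genes. Both Pax shares exceeded those of these families, which in turn exceeded those of all coding genes. Of paired-like homeobox genes 25.9% had a domain and 7.41% a residual one. Chromosomes 8 and 11 are included. Pax6 and Pax7 had 2 residual domains each, which 1.25% of coding genes (275) and 1.32% of those of 20 to 200 kb matched or exceeded. The map of the 9 loci shows 2 residual domains each at Pax6 and Pax7 and 1 each at Pax2, Pax3 and Pax5. Pax3, Pax6 and Pax7 are the genes for which the family was chosen. Pax1 and Pax8 had no residual domain, and Pax4 and Pax9 are empty within 10 kb.

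**Figure D1:**
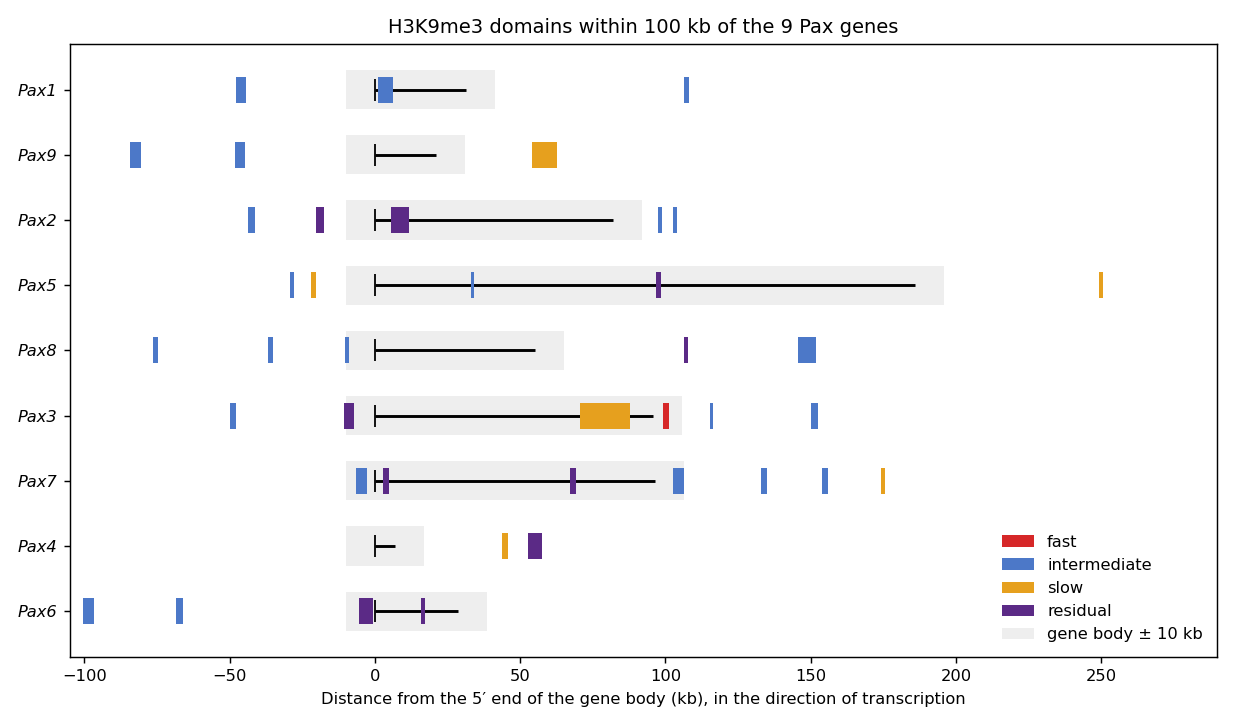
H3K9me3 domains within 100 kb of the 9 Pax genes, drawn to scale in kb from the 5′ end of each gene body in the direction of transcription. Black lines are gene bodies, grey bands the 10 kb windows, and coloured blocks the domains by decay class: 7 of the 14 domains in the windows are residual, and Pax9 and Pax4 have none.

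The 14 domains covered 56.4 kb in all and were 0.9 to 17.1 kb wide, with a median of 2.85 kb beside 3.0 kb for all domains. The 7 residual domains were 1.5 to 6.3 kb wide (median 2.1 kb, 22.2 kb in all), near the 2.7 kb median of their class. The slow domain of Pax3 alone made up 30.3% of the covered width. Of the 14 domains, 8 overlapped a gene body (5 residual, 2 intermediate and 1 slow), 4 lay upstream and 2 downstream. An exon of a protein-coding transcript was overlapped by 5 of the 14, against 19.8% of domains near coding genes, and all 5 of these reached coding sequence. Of the 7 residual domains 3 were on an exon, and 47.6% of the residual domains near coding genes were. Of the 5 Pax domains on an exon 3 were residual, beside 10.8% of the domains on coding-gene exons outside chromosomes 8 and 11. A promoter, meaning 1 kb to either side of the start of a protein-coding transcript, was overlapped by 2 domains, at Pax1 and Pax6, beside 8.69% of domains near coding genes. With the starts of all transcripts the count was 3, the third being the gene-body domain of Pax6.

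Pax1 and Pax9, the paired-box genes of the vertebral column, teeth and pharyngeal pouches, differed in whether they had a domain. Pax1 (chr2:147361925-147393295, plus strand, 5 exons in its isoform Pax1-201) carried an intermediate domain of 5.1 kb at chr2:147363001-147368100. This domain ran from -1.99 to 3.11 kb relative to the start of that isoform. It covered exons 1 to 3, 77.1% of the coding sequence (1032 bases, residues 1 to 344 of 446) and 16.3% of the gene body. It was the only domain of the 14 to cover a transcript start listed by RefSeq: of 10 such start windows at 7 Pax genes, from 250 bases before to 50 after, 1 met a domain. Pax9 (chr12:56691767-56712822, plus strand) had no domain in its window. The domain nearest to Pax9 was slow, 8.7 kb wide, 33.1 kb downstream at chr12:56745901-56754600, and overlapped the neighbouring gene Slc25a21.

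Pax2, Pax5 and Pax8 form a subgroup that acts in kidney, midbrain and hindbrain, B cells and thyroid. Pax2 (chr19:44756045-44837871, plus strand, 10 exons) carried 1 domain, residual and 6.3 kb wide, at chr19:44761501-44767800, which is the widest of the residual domains in the family. It began 5.46 kb after the start and covered all of exon 3 (198 bases, residues 71 to 137 of 394), and 93.9% of it lay in intron 3. Pax5 (chr4:44524757-44710487, minus strand), the longest member with a body of 185.7 kb, had 2 domains, neither on an exon. Its residual domain (chr4:44612101-44613600, 1.5 kb) lay wholly in intron 6, an intron of 35.7 kb. Its intermediate domain (chr4:44676601-44677500, 0.9 kb, the narrowest of the 14) lay wholly in intron 5 and overlapped the antisense gene Gm12462. Pax8 (chr2:24420560-24475599, minus strand) had no domain on its body. Its 1 domain was intermediate, 1.5 kb wide at chr2:24484501-24486000, 8.90 kb upstream, on the processed transcript Gm13415.

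Pax3 and Pax7, the pair that marks muscle progenitors, dorsal neural tube and neural crest, had 7 of the 14 domains between them, on bodies of like length (95.9 and 96.5 kb). Pax3 (chr1:78101267-78197134, minus strand, 9 exons) was the only member with 3 classes. Its slow domain, at chr1:78109501-78126600, was 17.1 kb wide, where the median slow domain was 4.2 kb and 3.18% of the slow class (279 domains) were as wide or wider. That domain covered exons 6 and 7, which encode residues 265 to 391 of 484 (381 bases, 26.2% of the coding sequence), and 70.6% of it lay in intron 7. A fast domain of 1.8 kb lay 3.47 kb past the end of the gene at chr1:78096001-78097800. A residual domain of 3.6 kb lay 7.17 kb upstream at chr1:78204301-78207900. The 3 classes were thus ordered along the locus as residual before the gene, slow in its distal part and fast beyond it.

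Pax7 (chr4:139737062-139833528, minus strand, 9 exons) had the most domains of the family, 2 residual ones on its body and 2 intermediate ones outside. The first residual domain, at chr4:139828801-139830900, lay 2.63 to 4.73 kb after the start and covered exons 2 and 3, residues 29 to 151 of 503 (366 bases, 24.3% of the coding sequence). The other, at chr4:139764301-139766400, was also 2.1 kb wide and lay wholly in intron 7, an intron of 30.4 kb. The intermediate domains were both 3.9 kb wide, 1 of them 2.77 kb upstream at chr4:139836301-139840200 and the other 6.06 kb downstream at chr4:139727101-139731000. Every domain on the body of Pax7 was therefore residual, and every domain in its flanks intermediate, while the start itself lay between domains of both classes.

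Pax4 and Pax6 both act in the pancreas, and Pax6 also directs eye and forebrain development. Pax6 (chr2:105668900-105697364, plus strand, 13 exons in its isoform Pax6-206) had 2 domains and both were residual. One, 5.1 kb wide at chr2:105663301-105668400, ended 500 bp before the gene and overlapped the antisense gene Pax6os1. The other, 1.5 kb wide at chr2:105684601-105686100, covered exons 5 to 7, residues 48 to 189 of 436 (424 bases, 32.4% of the coding sequence). Exon 5, of 42 coding bases, is the alternatively spliced exon known as 5a that lengthens the paired domain. The RefSeq window around another start of Pax6, from 250 bases before to 50 after it, ended 2.09 kb before this domain. Pax4 (chr6:28442334-28449353, minus strand), the shortest member with a body of 7.02 kb, had no domain in its window. Its nearest domain was slow, 1.8 kb wide, 36.8 kb downstream.

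At 4 genes the coding part of a domain overlapped the paired box. Coding bases made up 3.1% of that domain at Pax2, 17.4% at Pax7, 20.2% at Pax1 and 28.3% at Pax6. An alignment of the 9 proteins placed the block of the paired domain at 116 residues in 6 members, 117 in Pax3 and Pax7, and 130 in Pax6. The Pax6 block includes the 42 coding bases of exon 5, all in the domain, and 116 of its residues align with other members. Of the 348 bases that encode the block in Pax1, 100% lay in the intermediate domain. In residual domains lay 96.9% of those of Pax7 (340 of 351), 69.2% of those of Pax6 (270 of 390) and 55.5% of those of Pax2 (193 of 348). The share was 0 in Pax9, Pax5, Pax8, Pax3 and Pax4. Over the 9 genes, 1151 of 3180 block bases (36.2%) lay in domains, against 1250 of 8226 coding bases outside the block (15.2%). The block is a run of conserved alignment columns, so its ends may fall short of the full paired domain. The bases of 1 exon share 1 domain and are not independent, so these shares are a description of 4 loci.

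Each of the 4 subgroups had exactly 1 member with paired-domain bases in a domain, and its nearest relatives had none. Pax4, Pax8 and Pax9 had no domain on their bodies, so their shares could only be 0. The pattern describes single loci, has no background share beside it and was not tested. Pax1 and Pax9 are 97.4% identical over the block, and the shares in domains were 100% and 0. Pax2 and Pax5 are also 97.4% identical over it, Pax2 and Pax8 are 92.2% identical, and the shares were 55.5%, 0 and 0. Pax3 and Pax7 are 94.9% identical over the block and 78.2% over the whole protein, and the shares were 0 and 96.9%. Pax4 and Pax6 are 70.7% identical, the least among pairs within a subgroup, with shares of 0 and 69.2%. Of the 4 members with a homeodomain (Pax3, Pax4, Pax6 and Pax7), a domain reached that block only in Pax3, where 33 of its 159 bases (20.8%) lay in the slow domain. Those 33 bases are the capitals at the start of Pax3 exon 6, and the rest of the slow domain's coding bases lie beyond the aligned block, which is shorter than the full homeodomain.

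**Figure D2:**
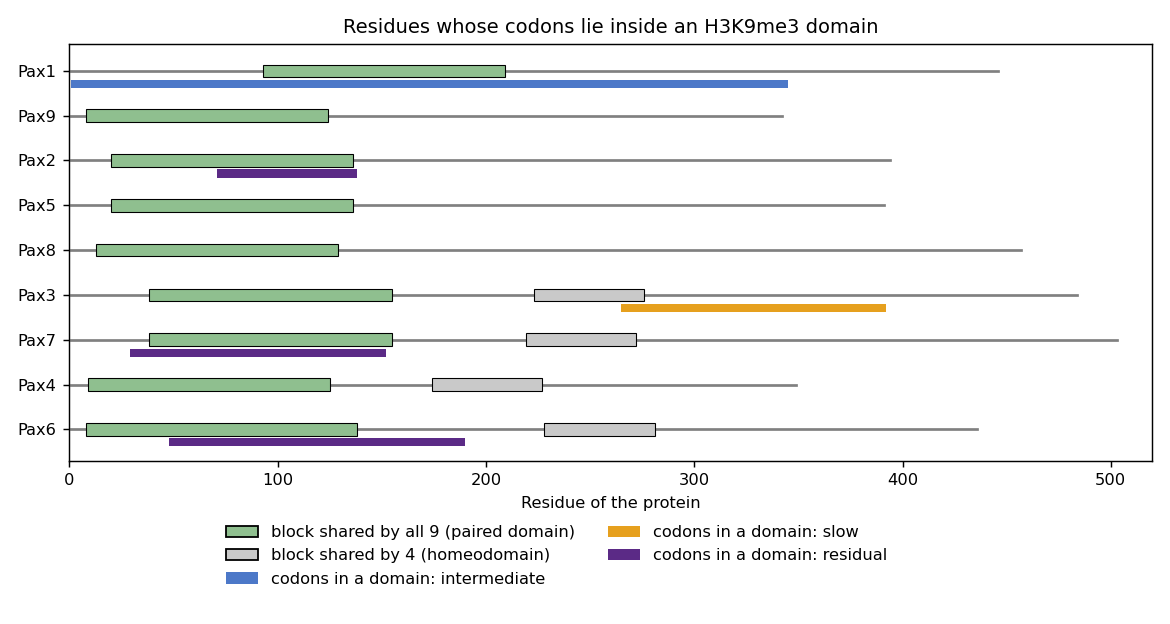
Proteins of the 9 Pax genes to scale in residues, with the block aligned in all 9 (paired domain, green) and the block aligned in 4 (homeodomain, grey); coloured bars under a protein mark residues whose codons lie in an H3K9me3 domain of that class. The bars of Pax1, Pax2, Pax7 and Pax6 overlap the paired domain, by 100%, 55.5%, 96.9% and 69.2% of its bases, and that of Pax3 lies mostly beyond the aligned block of its homeodomain.

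Beside all domains, the Pax domains shared a low content of repeats. The choice of members did not use repeats directly, but it used the decay classes, and the residual class is itself low in repeats. This trait is therefore not independent of the choice. The soft-masked share, the bases that the reference marks as repeats, was 5.98% (Pax1) to 49.6% (Pax7, downstream), with a median of 17.4%. All 14 lay below the median of all domains, 71.3%. The residual class as a whole had a median of 17.0%, so the 13.4% median of the 7 residual Pax domains was close to that of their class. On coding-gene exons the residual median was 10.7%, exceeded by each exonic residual domain (Pax2, Pax6 and Pax7). Off such exons it was 21.6%, exceeded by the intronic domain of Pax7 but not by the intronic one of Pax5 or the upstream ones of Pax3 and Pax6. The exonic residual Pax domains were thus not low in repeats for residual domains on exons. The 5 intermediate domains (median 22.1%), the slow domain of Pax3 (19.1%) and its fast domain (23.6%) lay far below the medians of their own classes, which were 72.3%, 74.0% and 71.7%. The 4 intermediate domains off exons (9.22% to 49.6%) and the fast domain lay below the medians of intermediate and fast domains off coding-gene exons, 74.4% and 76.2%. The Pax1 domain and the slow Pax3 domain, both on exons, lay below the medians of their classes on coding-gene exons, 22.9% and 43.7%.

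Most of the sequence in the Pax domains occurs at 1 place in the genome. The share of 31-base words found once was 87.8% (Pax7, downstream) to 100%, with a median of 97.7%, against a median of 47.6% over all domains and 95.2% over residual ones. The 4 domains that were on a paired box had 100% (Pax6 and Pax7), 99.3% (Pax1) and 97.0% (Pax2). On coding-gene exons the median was 100% over residual domains, with Pax2 below it, and 91.7% over intermediate ones. These shares are of whole domains, introns included, and the paired boxes alone were not counted. GC content ran from 41.0% (Pax3, slow) to 54.6% (Pax1), with a median of 49.2%, and 13 of 14 domains exceeded the all-domain median of 43.0%. Residual Pax domains had a median of 49.6% beside 47.8% for their class. On coding-gene exons the residual median was 51.1%, exceeded by Pax7 (54.3%) but not by Pax2 (49.6%) or Pax6 (44.1%). Off such exons it was 46.9%, exceeded by the residual domains of Pax5, Pax6 and Pax7 but not by that of Pax3 (45.4%).

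CpG content varied among the members. The observed over expected CpG ratio was 0.475 in the Pax1 domain, which covers a start, 0.384 in the gene-body domain of Pax6 and 0.332 in its upstream domain. It was 0.260 and 0.234 in the exonic and intronic residual domains of Pax7, 0.234 at Pax2, 0.141 at Pax5 and 0.113 in the upstream residual domain of Pax3. The 2 lowest of these residual domains had no coding sequence, and the 7 residual domains straddled the class median of 0.193, with 5 above it. On coding-gene exons the residual median was 0.270, exceeded by the gene-body domain of Pax6 but not by Pax2 or the exonic domain of Pax7. Off such exons it was 0.175, exceeded by the upstream domain of Pax6 and the intronic one of Pax7 but not by Pax5 or Pax3. Over all 14 domains, 6 exceeded the all-domain median of 0.230.

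**Figure D3:**
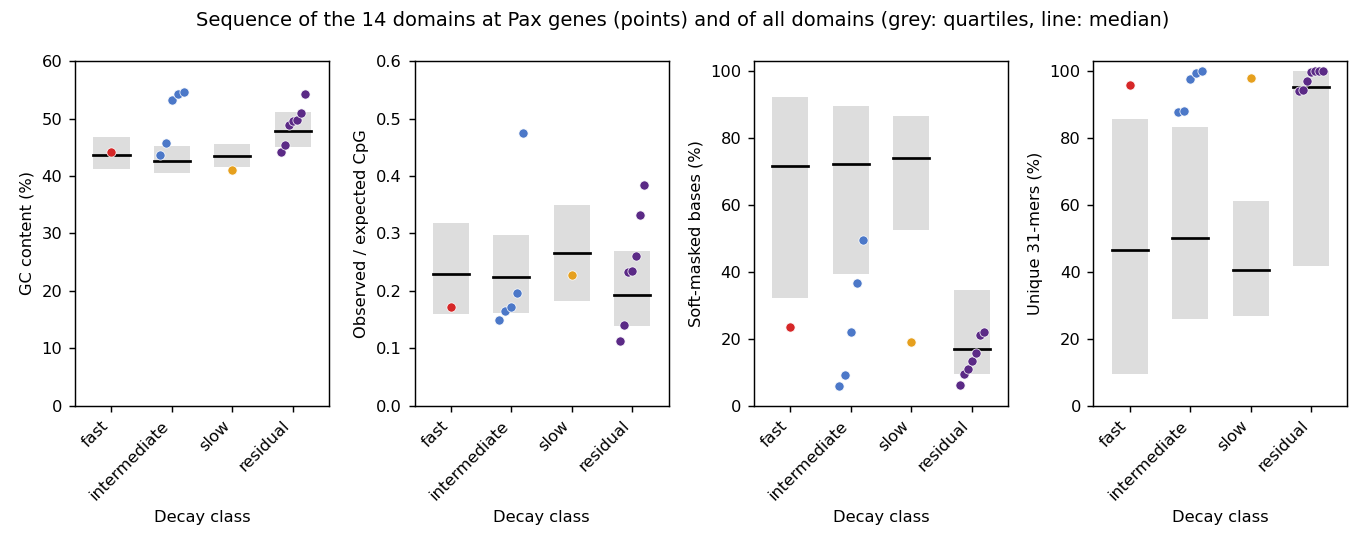
GC content, observed over expected CpG, soft-masked share and share of unique 31-mers of the 14 Pax domains (points, by decay class); grey bars span the quartiles of all domains of the class and black lines are their medians. All 14 points lie below the all-domain median of 71.3% soft-masked bases, and their shares of unique 31-mers are 87.8% to 100%.

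Partners and targets of the Pax factors were counted in the same way, beside the 42.2% of coding genes with a domain and the class shares of 68.3% intermediate, 20.7% slow and 7.76% residual near coding genes. Eya genes, Six3 and its relatives, and Dach genes encode coactivators and DNA-binding partners that work beside Pax proteins in eye, ear, kidney and muscle. Of the 11 such genes examined 4 had a domain, and of their 12 domains 9 were intermediate, 2 fast, 1 slow and 0 residual, an intermediate share near the background. The slow domain was at Eya2 (4.8 kb) and the fast ones at Six3 (3.6 kb) and Dach2 (2.4 kb). Of 20 genes known as targets of Pax factors, 10 had a domain, and 4 of their 16 domains (25.0%) were residual, or 2 of 14 without chromosomes 8 and 11. The other 12 were 10 intermediate and 2 slow. The residual ones lay at Lhx1 and Gdnf, which act in kidney development (9.3 and 5.4 kb in residual domains), and at Ret, the GDNF receptor (2.7 kb). The melanocyte factor Mitf and the insulin gene Ins2 had slow domains of 7.2 and 6.9 kb, and the muscle factor Myod1 had an intermediate one. Of 27 homeobox genes of the paired-like class, which resemble the Pax homeodomain but lack a paired box, 7 had a domain, with 4 residual and 5 slow among 12 (4 residual of 9 without chromosomes 8 and 11). Dmbx1 held 3 of those residual domains (7.8 kb in all) and Otx2 the other (2.4 kb), while Pitx1 held 2 slow domains of 15.3 kb in all.

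A high residual share was also found at other families of developmental transcription factors. It was 80.0% at Hox genes (16 of 20 domains), 57.1% at T-box genes (12 of 21) and at Gata genes (4 of 7), 44.4% at Lhx genes (4 of 9), 35.7% at Nkx genes (5 of 14) and 33.3% at Sox genes (9 of 27). The 50.0% of the Pax genes lay within this range. Without chromosomes 8 and 11 the counts were 6 of 10 at Hox genes, 5 of 13 at T-box genes, 4 of 7 at Gata genes, 2 of 7 at Lhx genes, 4 of 13 at Nkx genes and 4 of 17 at Sox genes, while the Pax count of 7 of 14 did not change. A few genes stand in more than 1 list (Lhx1 and Nkx3-2 among those with a domain), neighbouring Hox genes share domains, and no difference between lists was tested.

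**Figure D4:**
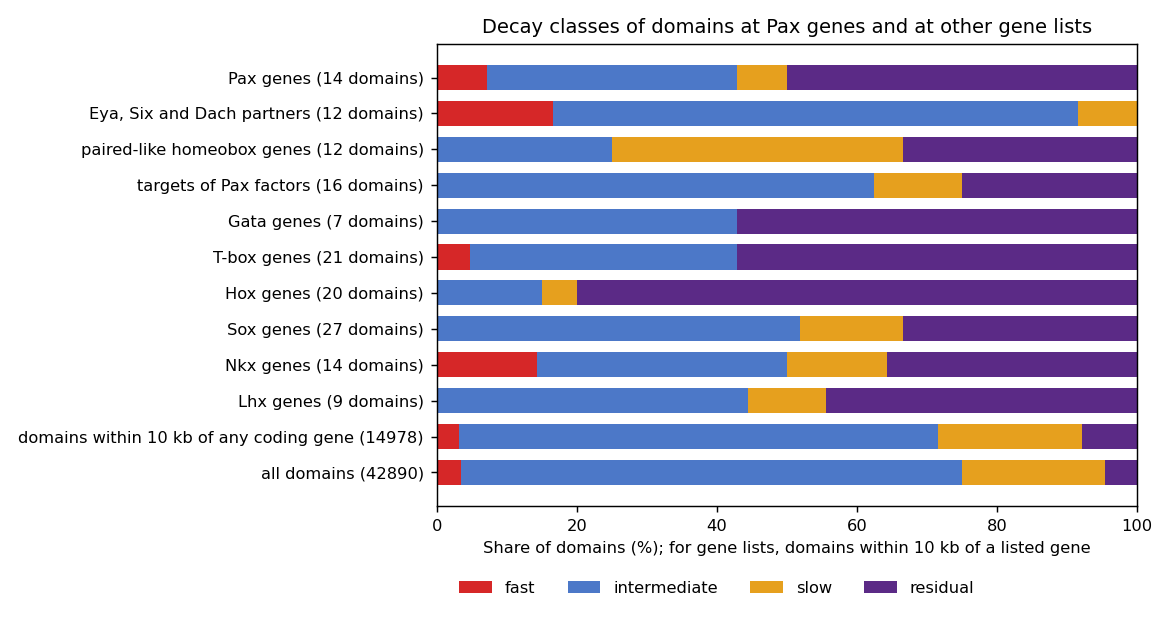
Share of H3K9me3 domains in each decay class (%) for the domains within 10 kb of the genes of 10 lists, of any protein-coding gene and for all domains; the number of domains is given with each name. Residual domains make up 50.0% at Pax genes, 0 at the list of partners, 80.0% at Hox genes and 4.57% of all domains.

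Farther from the Pax genes the intermediate and slow shares were near those of all domains, 71.5% and 20.5%. Between 10 and 100 kb from the Pax genes lay another 26 domains, of which 18 (69.2%) were intermediate, 5 (19.2%) slow, 3 (11.5%) residual and 0 fast, where 4.57% of all domains were residual. The residual ones were at Pax2 (17.6 kb upstream, chr19:44735701-44738400), Pax4 (45.8 kb downstream, on Zfp800) and Pax8 (51.3 kb downstream, on Psd4). The last domain inside the 10 kb limit was the intermediate domain of Pax8 at 8.90 kb, and the first outside it was an intermediate domain of Pax2 at 15.7 kb, so no domain lay close to the limit on its outer side.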

How the data were processed

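The authors' deposited table of H3K9me3 domains gives a chromosome, start, end and decay class in words, and was made across the time course in a way the sources used here do not state. Per the submitters' processing notes, Bowtie2 2.3.4.1, SAMtools 1.1, deepTools and bedtools were used, with the builds mm10, dm6, mm9 and GRCm38. How domains were called, reads in repeats placed, signal scaled by the Drosophila spike-in or repeats pooled is stated by none of the sources read here. HP1β, the inputs and signal tracks were not analysed here.

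Domains lie on a 300 bp grid, and 0 of them ran past a chromosome end of GRCm38.p6. The table has 43039 domains, and the 42890 on chromosomes 1 to 19, X and Y were used. An overlap needed 1 bp. Coordinates are 1-based. The members, the 10 gene lists and the range of gene lengths were chosen with earlier results of these data known. All Pax domains are named, and of the other lists up to 4 genes with the most bases in domains that are not intermediate; Ret, Otx2, Myod1, Psd4, Zfp800 and Slc25a21 were named after their values were seen. 1 gene of the lists of partners and targets is not reported here and was left out of their counts. 1 listed gene, Drgx, had no match by symbol in the annotation. Exons and residues follow 1 isoform per gene, and proteins translated from it were aligned with MAFFT 7.526. Copies of 31-mers were counted in 66 sequences of the assembly, at every base of the Pax domains and every 100 bp of the others. The software was Python 3.11.15 with Biopython 1.88, pysam 0.24.0, numba 0.67.0, matplotlib 3.10.9, pandas 2.3.3 and numpy 2.4.6, and overlaps and 31-mer counts were tested on simulated data. No test was run, since the table has no values per sample.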

Additional observations from a re-analysis of the deposited data

How the results depend on the processing

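Counts at the Pax genes depended on the window. With the gene bodies alone there were 8 domains in place of 14, with 2 intermediate in place of 5 and 0 fast in place of 1. With 50 kb on either side there were 29 domains, of which 15 were intermediate and 4 slow in place of 1. Residual domains numbered 5 on the bodies and 9 within 50 kb, and genes with a domain 6 and 9. With the domain midpoint required to lie in an exon, 0 of the 14 domains were on one, in place of 5. With promoters of 5 kb to either side of a start, 5 domains were on one, in place of 2, and with the starts of all transcripts 3 were. Requiring 50% of a domain inside the window, leaving out domains of 600 bp or less, or joining neighbours of 1 class less than 5 kb apart changed no count of genes, domains or classes. No paired analysis was possible because the table has no values per sample, so samples that share a replicate number cannot be set against each other. Depth limits every statement, since neither the signal behind a class nor its spread over the 3 repeats is known here.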
